A study of Rattus norvegicus with 6 samples.

Results

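The carotid artery of the rat 7 days after reopening was set against the normal carotid artery, which are the 2 recanalized day 7 libraries and the 1 control library among the 6 of the series. Both day 7 libraries came from common carotid arteries in which the oxidizing salt ferric chloride had injured the wall and raised a clot, and which had then been reopened by sonodynamic therapy, where ultrasound excites a sensitizer, with what the submitters call physical-explosion therapy. The control was an untreated common carotid artery. The 3 libraries collected 1 day after reopening enter only as a source of the spread between libraries and, for Sost, Mki67 and Fam111a, as values. Polyadenylated RNA was sequenced in all of them. The labels give no strain, sex or age, and no group had the clot or the treatment alone, so their effects cannot be told apart. The labels also do not say whether the libraries come from separate animals, so p-values measure the spread between these samples, which may be technical. Defining transcripts of the labelled tissue were present in all 3 libraries. Myh11, the smooth muscle myosin, had 5245 and 4859.7 CPM at day 7 and 10566 CPM in the control, and Vwf, the adhesive protein of endothelium, had 1005 and 807 CPM at day 7 and 721 CPM in the control.

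An artery keeps its calibre through smooth muscle cells held between elastic sheets in its middle coat, under a single layer of endothelium and inside a coat of fibroblasts. After an injury, monocytes enter and become macrophages that take up dead cells, lipid and the iron of broken red cells, while smooth muscle cells and fibroblasts can divide, migrate and lay down a provisional matrix. Elastin is made mostly in development and is poorly replaced, and smooth muscle cells that take part in repair are known to lower their contractile proteins. The comparison asks which of these functions lay away from the normal vessel a week after flow returned.

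Levels are counts scaled to the normalized library total (CPM), and 3 counts, the floor used for a gene at or near 0, correspond to 0.0598 and 0.0911 CPM in the day 7 libraries and 0.0974 CPM in the control. Totals were 47240013 and 31268481 counts at day 7 and 32013817 counts in the control. Of 15860 genes that passed a filter on low counts, 1206 (7.60%) were at least 4-fold higher than the control in both day 7 libraries, and 225 (1.42%) were at least 4-fold lower in both. With no limit on size, 6642 genes (41.9%) lay above and 5710 (36.0%) below the control in both, and 9219 genes (58.1%) lay within 2-fold of it in both. These are descriptions, since the control has no replicate. In edgeR's quasi-likelihood test over all 6 libraries 0 genes passed a Benjamini-Hochberg adjusted p of 0.05, while 1601 had an unadjusted p under 0.05. Day 1 replicate 1 stood apart from its group: its log2(CPM + 1) correlated across genes at r = 0.961 with the control and at 0.902 and 0.938 with day 1 replicates 2 and 3, although genes are no replicates. Without it the same test called 602 genes higher (3.81%) and 91 lower (0.577%) at day 7. With the day 7 and control libraries alone it called 686 (4.46%) and 136 (0.884%), and DESeq2 on all 6 libraries called 619 (4.23%) and 172 (1.18%). Of the 602 genes, 561 were among the 1206 that were 4-fold higher in both libraries, which is 93.2% of the calls and 46.5% of the 4-fold genes. Both sets rest on the same day 7 libraries and the same control, so the overlap is no independent support. Adjusted p-values given below are edgeR's without day 1 replicate 1 unless all 6 libraries are named. Of the fits that leave out 1 treated library, only this one called genes, so its p-values and counts under 0.05 are descriptive. Since no gene passed with all 6 libraries, "higher" and "lower" describe values, and counts of list members at least 4-fold away are of those so far away in both day 7 libraries. Such counts stand beside the 7.60% higher and 1.42% lower of all genes tested. Counts with no limit on size stand beside the 41.9% and 36.0%.

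The 10 leading genes above the control were mostly genes of antigen presentation and of leukocytes. RT1-Da, an alpha chain of the class II molecules that show peptides to helper T cells, had 347 and 262 CPM at day 7 and no count in the control, which makes it at least 3567-fold and 2692-fold higher. Cd74, the invariant chain that guides class II molecules to their peptides, had 1132 and 727 CPM at day 7 and 0.292 CPM in the control. Mmp12, the elastin-degrading metalloproteinase of macrophages, had 762 and 95.3 CPM at day 7 and no count in the control. Both day 7 libraries lay far above the control for these 3 genes, and the pair differed most between themselves in Mmp12, whose edgeR adjusted p was 0.0711, against 0.00586 for Cd74. Tnn, a matrix protein of the tenascin family, had 185 and 549 CPM at day 7 and 0.260 CPM in the control. Hk3, a hexokinase of myeloid cells, had 95.3 and 49.4 CPM at day 7, against 0.0325 CPM in the control. The control held 1 count of Hk3, so the ratio of day 7 replicate 1 was 2936 with a 95% counting interval of 527 to 115997. The leukocyte receptor Lilrb4 had 206 and 172 CPM at day 7 (control, 0.260 CPM). Fcrl2, a receptor of the same superfamily, had 71.5 and 98.7 CPM at day 7 (control, 0.0649 CPM). The class II genes RT1-Ba, RT1-Bb and RT1-Db1 completed the 10. With all 6 libraries the edgeR adjusted p of each of these genes was 0.477. In a bulk library, more cells of a type and more RNA per cell cannot be told apart.

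The 10 leading genes below the control came from varied functions. Myh6, a heart-type myosin heavy chain, had 0.798 and 0.759 CPM at day 7 and 81.01 CPM in the control. Alpl, the tissue phosphatase that removes the mineralization inhibitor pyrophosphate, had 12.2 and 13.03 CPM at day 7 and 160.3 CPM in the control. Pi15, a secreted protease inhibitor, had 6.86 and 11.6 CPM at day 7, against 138 CPM in the control. All 3 were low in both day 7 libraries, and Pi15 was 20.1-fold and 11.8-fold higher in the control. Trpm8, the cold-sensing cation channel, had 8.86 and 12.8 CPM at day 7 (control, 128 CPM). Sv2c, a glycoprotein of secretory vesicles, had 55.7 and 55.9 CPM at day 7 against 507 CPM in the control, so that the pair was nearly equal. Slc6a7, a proline transporter, had 2.61 and 2.95 CPM at day 7 (control, 33.4 CPM). Crhr2, a receptor for the urocortin peptides, had 3.41 and 3.13 CPM at day 7 against 30.8 CPM in the control. Plppr4, a membrane protein known from neurons, differed most within the pair, with 1.48 and 0.273 CPM at day 7, against 44.1 CPM in the control. Fam132a and the locus LOC102553715 made up the rest. The edgeR adjusted p lay between 0.00747 and 0.0264 for all 10, and with all 6 libraries between 0.477 and 0.494.

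**Figure D1:**
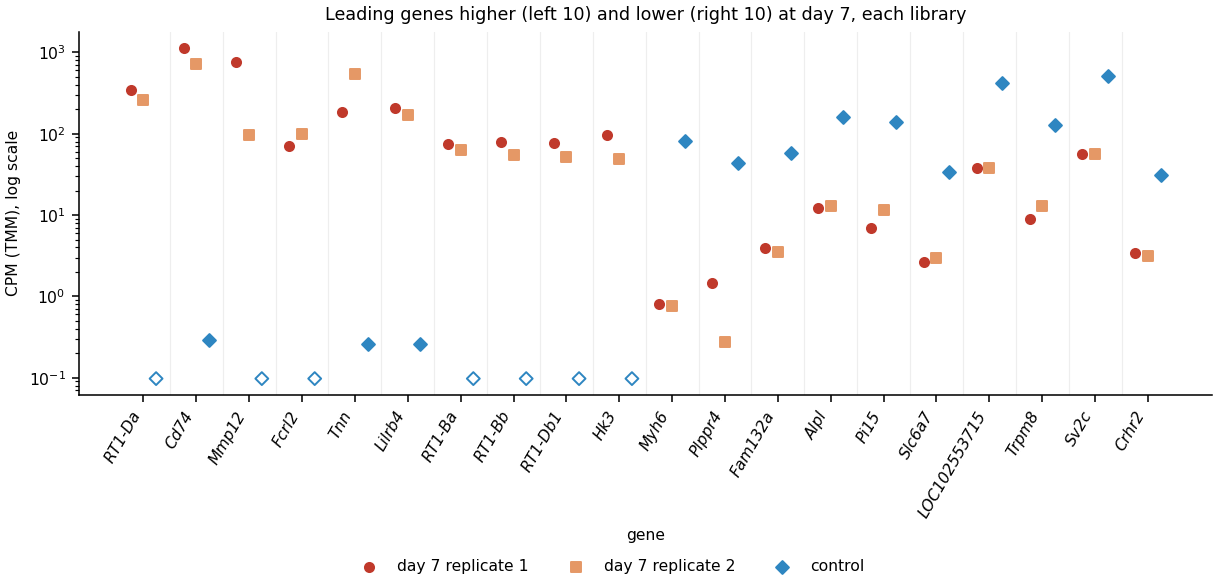
CPM on a log axis in day 7 replicate 1, day 7 replicate 2 and the control, for the 10 leading genes in each direction. Open symbols are under 3 counts and drawn at the floor. Both day 7 points lie on the same side of the control in every gene shown, and Mmp12 and Plppr4 have the widest gap within the pair.

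The gene lists ranged from far above to below the control. Medians of the log2 fold over the control were 5.44 and 4.54 in day 7 replicates 1 and 2 for class II presentation, and -1.05 and -0.92 for channels and calcium handling. Over all genes tested the medians were 0.08 and 0.06. Among all lists, plotted or not, the medians of the pair lay furthest apart for skeletal muscle (3.96 and 0.90), erythroid markers (0.41 and -2.32) and immediate early genes (2.53 and 0.97).

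**Figure D2:**
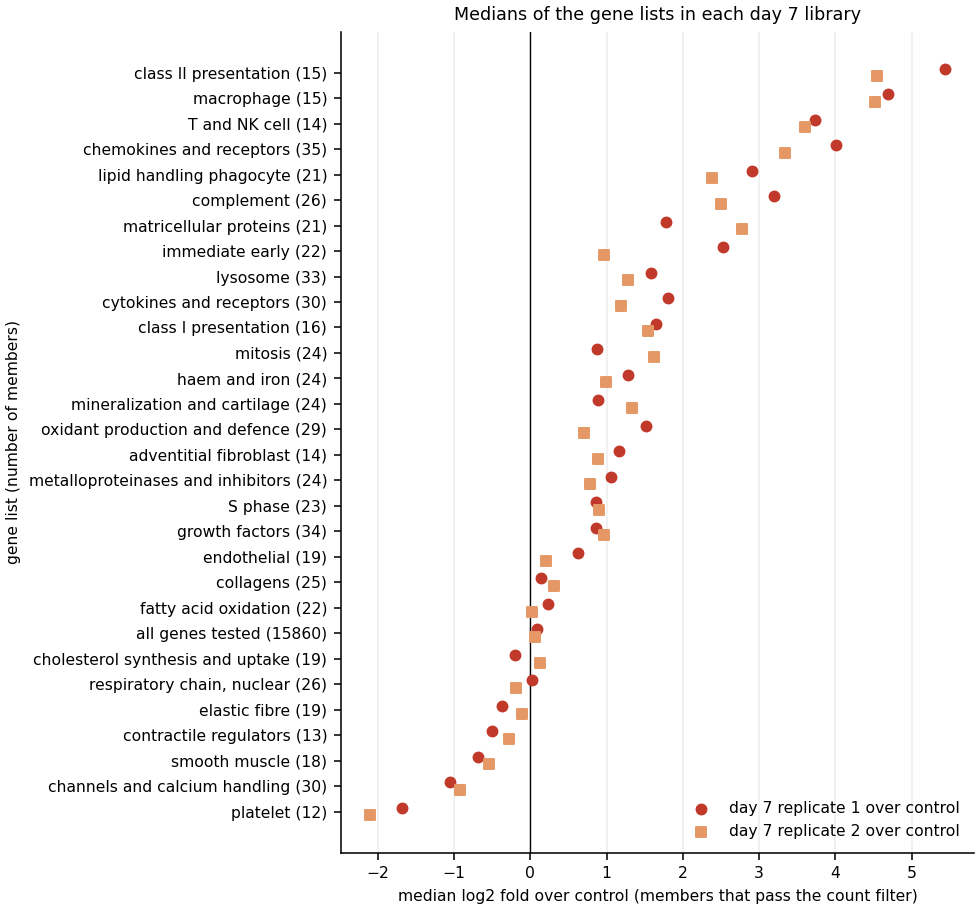
Median log2 fold over the control of the members of each gene list that pass the count filter, in day 7 replicate 1 and replicate 2, with the number of members in brackets. Class II presentation, macrophage, T and NK cell and chemokine lists lie furthest to the right, the respiratory chain and all genes tested lie near 0, and the channel and platelet lists lie to the left.

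Antigen presentation through class II had the highest median of the lists. All 15 genes, each of which passed the count filter, were above the control in both day 7 libraries, 10 of them at least 4-fold, and 9 had an edgeR adjusted p under 0.05. RT1-Db1, the beta chain that pairs with RT1-Da, had 75.9 and 52.1 CPM at day 7 and no count in the control. RT1-Ba, an alpha chain of the other main class II molecule, had 73.9 and 62.6 CPM at day 7 (control, 0.0325 CPM). RT1-Bb, its beta chain, had 78.7 and 54.5 CPM at day 7 (control, 0.0649 CPM). The control values of this last pair are 1 and 2 counts. Ciita, the regulator that class II genes need, had 18.8 and 14.0 CPM at day 7 and 0.260 CPM in the control. The co-stimulatory receptor Cd86 had 6.68 and 8.87 CPM at day 7, against 0.130 CPM in the control. Lgmn, a lysosomal protease that trims the invariant chain, was expressed in the normal artery too, with 614 and 401 CPM at day 7 against 105 CPM in the control. RT1-DMa, a chain of the molecule that loads peptides, was among the 5 genes that were not 4-fold higher in both, with 1.76 and 1.46 CPM at day 7 (control, 0.487 CPM). Rat class II genes resemble each other, so reads may have been shared among them.

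Promoter sequences of the 4 class II chain genes and of Cd74 are shown because these genes lay furthest from the control together. They are the 150 bases before the annotated start, from RefSeq on build GRCr8, read 5′ to 3′ on the strand of the gene. Capitals mark CTGATTGG, the core of the Y box, which the factor NF-Y binds, searched on both strands. This motif was chosen after the sequences were seen.
RT1-Da: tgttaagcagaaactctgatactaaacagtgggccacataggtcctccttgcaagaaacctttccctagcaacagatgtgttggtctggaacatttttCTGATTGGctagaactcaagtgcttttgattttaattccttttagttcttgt
RT1-Db1: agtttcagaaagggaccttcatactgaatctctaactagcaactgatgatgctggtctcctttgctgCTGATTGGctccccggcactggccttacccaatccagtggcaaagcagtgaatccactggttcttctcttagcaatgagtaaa
RT1-Ba: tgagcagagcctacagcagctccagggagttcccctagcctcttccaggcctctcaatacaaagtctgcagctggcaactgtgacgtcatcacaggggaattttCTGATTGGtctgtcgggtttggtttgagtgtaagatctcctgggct
RT1-Bb: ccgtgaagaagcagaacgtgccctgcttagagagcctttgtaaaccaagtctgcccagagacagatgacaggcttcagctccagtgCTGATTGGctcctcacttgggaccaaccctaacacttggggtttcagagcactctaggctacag
Cd74: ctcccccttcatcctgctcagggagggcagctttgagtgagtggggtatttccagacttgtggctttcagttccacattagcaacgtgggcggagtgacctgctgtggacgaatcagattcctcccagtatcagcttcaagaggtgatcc
RT1-Da lies at chr20:4515265-4515414 on the plus strand, RT1-Db1 at chr20:4560163-4560312 on the minus strand, RT1-Ba at chr20:4576907-4577056 on the plus strand and RT1-Bb at chr20:4604119-4604268 on the minus strand. Cd74 lies at chr18:56527056-56527205 on the plus strand. The 8 letters begin 52, 83, 46 and 64 bases before the start of RT1-Da, RT1-Db1, RT1-Ba and RT1-Bb, and are not in the Cd74 stretch. In windows of 300 bases, 250 before to 50 after the start, they occur in 3.55% of all 27457 genes with a window, in 0 of 14 smooth muscle, 1 of 11 macrophage and 7 of 20 mitosis genes. They occur in 5 of 12 class II list genes, 4 of which are the chain genes the motif was chosen on, so that this share says nothing about the list. The CArG box, the site of serum response factor, occurs in 1 of 14 smooth muscle, 0 of 11 macrophage and 0 of 20 mitosis genes, and in 1.64% of all genes. TGANTCA, the site of AP-1, occurs in 4 of 14 smooth muscle, 1 of 11 macrophage and 0 of 20 mitosis genes, and in 7.33% of all genes. A match describes letters in a window and no binding.

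Class I presentation lay nearer to the control. Of 17 listed genes 16 passed the filter, 14 of these were higher in both day 7 libraries, and 6 had an edgeR adjusted p under 0.05. B2m, the light chain of class I molecules, had 1633 and 1256 CPM at day 7 and 809 CPM in the control. The heavy chain RT1-A2 had 160.1 and 124 CPM at day 7, against 34.8 CPM in the control, with an edgeR adjusted p of 0.0271. The immunoproteasome subunit Psmb8 was the single gene at least 4-fold higher in both libraries, with 32.7 and 33.7 CPM at day 7 (control, 7.47 CPM). Erap1, which trims peptides for class I, had 95.8 and 111 CPM at day 7 against 102 CPM in the control, on both sides of the control.

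Macrophage markers were the cell type list with the highest median. Of 15 markers 13 were at least 4-fold higher in both day 7 libraries and 11 had an edgeR adjusted p under 0.05. Their summed level was 6676 and 5406 CPM at day 7, against 89.9 CPM in the control. The part of this difference in the results on presentation, clearance, oxidants, chemokines and complement was not tested. Lyz2, a lysozyme of myeloid cells that has a close copy, had 4626 and 3924 CPM at day 7 and 13.1 CPM in the control. Cd68, a lysosomal glycoprotein used as a macrophage marker, had 227 and 128 CPM at day 7 and 1.10 CPM in the control. Csf1r, the receptor that macrophages need to survive, had 302 and 290.3 CPM at day 7, against 13.2 CPM in the control. The pair lay together and the control far below in all 3. Ms4a7 was the one marker on both sides of the control, with 2.65 and 5.89 CPM at day 7 (control, 2.76 CPM). Among 10 markers of resident-type macrophages, 4 were at least 4-fold higher. Folr2, a folate receptor, had 72.5 and 42.6 CPM at day 7 (control, 1.17 CPM), whereas Timd4, a receptor for dying cells, had 62.9 and 49.1 CPM at day 7 against 118 CPM in the control and was lower. Of 9 markers of recruited monocytes 7 were at least 4-fold higher, among them the integrin Itgam with 136 and 97.4 CPM at day 7 (control, 0.649 CPM).

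T and NK cell transcripts were present at day 7, and 10 of 14 markers had no count in the control. Of 14 T and NK cell markers that passed, all were higher in both libraries, 12 of them at least 4-fold. Cd3e, a chain of the T cell receptor complex, had 1.95 and 2.10 CPM at day 7 and no count in the control. Cd8b, of the cytotoxic T cell co-receptor, had 5.75 and 4.65 CPM at day 7 and no count in the control. Cd4, which rat macrophages also carry, had 173 and 153 CPM at day 7 against 5.62 CPM in the control. On the scale per length, Cd4 had 61.1 and 53.9 FPKM at day 7, and Cd3e 1.46 and 1.56 FPKM at day 7. Of 8 B and plasma cell markers that passed, 4 were higher and 2 lower in both (all genes tested, 41.9% and 36.0%). The summed level of all 12 listed was 7.34 and 14.9 CPM at day 7 and 8.83 CPM in the control. Of the B cell markers, Ms4a1 and Pax5 had no count in the control and 8 counts or fewer at day 7. Jchain, the joining chain of secreted antibodies, had 2.97 and 9.75 CPM at day 7 (control, 0.0325 CPM).

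Granulocyte markers were low. Of 10 neutrophil markers that passed, 1 was at least 4-fold higher in both libraries, against 7.60% of all genes tested. It was the growth factor receptor Csf3r, which monocytes also carry, with 5.11 and 12.1 CPM at day 7 (control, 0.325 CPM). S100a9, a calcium-binding protein abundant in neutrophils, had 3.81 and 0.486 CPM at day 7 against 0.617 CPM in the control, higher in replicate 1 and lower in replicate 2, and the neutrophil protease gene Elane had no count. Of 12 mast cell markers 3 passed, and Cpa3, Fcer1a and Ms4a2 had no count in these 3 libraries.

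Lipid handling by phagocytes was higher as a group. Of 21 genes 13 were at least 4-fold higher in both day 7 libraries and 6 had an edgeR adjusted p under 0.05. Apoe, the lipid carrier that macrophages secrete, had 6478 and 4725 CPM at day 7 and 33.2 CPM in the control and an edgeR adjusted p of 0.00970. Gpnmb, a glycoprotein of lipid-laden phagocytes, had 3461 and 1977 CPM at day 7 and 13.5 CPM in the control. Trem2, a lipid-sensing receptor of macrophages, had 111 and 75.9 CPM at day 7, against 0.195 CPM in the control. Replicate 1 was above replicate 2 in all 3, by less than 2-fold, and both were far above the control. Abcg1, which exports cholesterol, had 50.8 and 72.3 CPM at day 7 (control, 6.79 CPM). The receptors for dying cells lay nearer the control, Axl with 218 and 235 CPM at day 7 (control, 230.4 CPM) and Mertk with 57.5 and 23.5 CPM at day 7 (control, 17.1 CPM).

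Lysosomal genes were higher by smaller factors. Of 33 genes 31 were higher in both day 7 libraries, 7 of them by 4-fold. Psap, the precursor of cofactors that degrade lipid, had 3496 and 2485 CPM at day 7 and 1138 CPM in the control. The protease Ctsb had 3159.9 and 1934 CPM at day 7 against 518 CPM in the control, and the protease Ctsd had 1576 and 1094 CPM at day 7 (control, 310.3 CPM). Day 7 lay above the control by 2-fold or more in each of these 3 genes.

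Of 24 iron and haem genes that passed, 17 were higher and 6 lower in both libraries, against 41.9% and 36.0% of all genes tested. Hmox1, the inducible enzyme that opens haem, had 309.7 and 204 CPM at day 7 and 3.70 CPM in the control, which is 83.7-fold and 55.2-fold higher, with an edgeR adjusted p of 0.0183. Ftl1, the ferritin light chain that stores iron, had 4557 and 2686 CPM at day 7, against 249 CPM in the control, with an edgeR adjusted p of 0.0224. Fth1, the ferritin heavy chain, had 2626 and 1474 CPM at day 7 and 828 CPM in the control. Slc11a1, a metal transporter of phagosomes, had 88.5 and 56.2 CPM at day 7 (control, 0.390 CPM). These 4 were above the control in both libraries. Hmox2, the constitutive haem oxygenase, had 35.99 and 38.7 CPM at day 7 against 38.2 CPM in the control, and the transferrin receptor Tfrc had 6.94 and 16.1 CPM at day 7 (control, 16.2 CPM). Of the list, 6 were at least 4-fold higher and 0 4-fold lower in both, against 7.60% and 1.42% of all genes tested.

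The superoxide-producing oxidase of phagocytes was higher in the subunits described here. Its membrane subunit Cybb had 199 and 205 CPM at day 7 and 1.23 CPM in the control. Cyba, which pairs with it, had 131 and 85.98 CPM at day 7, against 12.5 CPM in the control. The cytosolic subunit Ncf1 had 55.5 and 104 CPM at day 7 (control, 0.390 CPM). These and the cytosolic subunit Ncf4 were at least 4-fold higher in both libraries, with an edgeR adjusted p of 0.00586 to 0.0215. Nox4, the oxidase of vessel wall cells, had 70.9 and 58.6 CPM at day 7 against 13.1 CPM in the control, with an edgeR adjusted p of 0.166. Of 29 oxidant and defence genes that passed, 20 were higher and 1 lower in both, against 41.9% and 36.0% of all genes tested. At least 4-fold higher in both were 10 of them, against 7.60%. Among defence enzymes, Sod3 and Cat lay nearer the control. Sod3, the extracellular superoxide dismutase, had 586 and 493 CPM at day 7 against 502 CPM in the control. Catalase, Cat, had 91.05 and 68.3 CPM at day 7 (control, 84.8 CPM). Gpx3, a secreted glutathione peroxidase, had 1205 and 787 CPM at day 7 against 333 CPM in the control and was higher in both. Nqo1, also of this list, had log2 folds over the control of 1.37 and 0.86 in replicates 1 and 2. Mt1 had 2.29 and -0.22, on both sides of the control.

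**Figure D3:**
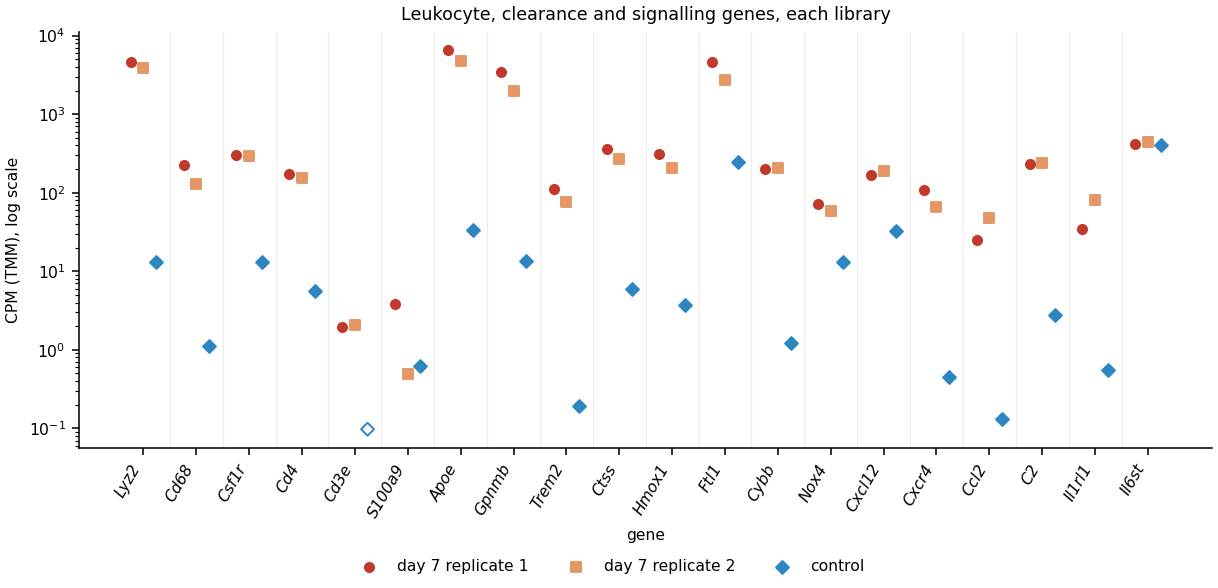
CPM on a log axis in day 7 replicate 1, day 7 replicate 2 and the control for genes of leukocytes, clearance, iron, oxidants and signalling. Open symbols are under 3 counts and drawn at the floor. Macrophage and clearance genes such as Lyz2 and Apoe stand far above the control in both day 7 libraries, S100a9 lies on both sides of it, and Il6st lies near it.

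Chemokine genes were higher as a group, with 21 of 35 at least 4-fold higher in both day 7 libraries and 8 with an edgeR adjusted p under 0.05. Cxcl12, which attracts and retains cells that carry Cxcr4, had 169 and 188 CPM at day 7 and 32.5 CPM in the control, with an edgeR adjusted p of 0.0111. Its receptor Cxcr4 had 109 and 66.2 CPM at day 7 and 0.455 CPM in the control. Ackr3, which removes Cxcl12, had 70.2 and 34.2 CPM at day 7 (control, 74.4 CPM) and was below the control in both. The monocyte attractant Ccl2 had 24.8 and 47.6 CPM at day 7 against 0.130 CPM in the control. Ccl7, of the same family, had 7.60 and 15.7 CPM at day 7 and no count in the control. Cxcl1, which attracts neutrophils, had 29.01 and 5.56 CPM at day 7 against 0.487 CPM in the control. Cxcl2, a close relative, had 24.1 and 5.59 CPM at day 7 and no count in the control. Replicate 2 was the higher one for the monocyte attractants and replicate 1 for the neutrophil attractants.

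Cytokine genes were less uniform, with 11 of 30 that passed at least 4-fold higher in both, against 7.60% of all genes tested. Il33, an alarm cytokine held in the nucleus, had 54.2 and 96.8 CPM at day 7 and 7.14 CPM in the control. Its receptor Il1rl1 had 34.5 and 80.7 CPM at day 7 and 0.552 CPM in the control. Il1rn, the natural antagonist of interleukin-1, had 140.3 and 28.2 CPM at day 7, against 0.455 CPM in the control. All 3 were above the control in both libraries, Il33 and its receptor more so in replicate 2 and Il1rn more so in replicate 1. Il6st, the receptor subunit shared by the interleukin-6 family, had 414 and 448 CPM at day 7 (control, 408 CPM). Tgfb3, a TGF-beta, had 275 and 541 CPM at day 7 (control, 350.3 CPM), on both sides of the control. Tnf and Ifng were at 3 counts or fewer in each of these libraries.

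Complement genes divided into a group far above the control and a group near it. Of 26 genes 14 were at least 4-fold higher in both and 8 had an edgeR adjusted p under 0.05. C2, a protease of the classical pathway, had 231 and 240.4 CPM at day 7 and 2.79 CPM in the control. C3, on which the pathways meet, had 12.9 and 27.8 CPM at day 7, against 0.260 CPM in the control. C5ar1, the receptor for a fragment of C5, had 63.3 and 58.2 CPM at day 7 (control, 0.812 CPM). Their edgeR adjusted p-values were 0.00586, 0.0142 and 0.00586. C1r, the first protease of the classical pathway, had 809 and 724 CPM at day 7 against 560.3 CPM in the control. Clu, a chaperone that binds the lytic complex, had 2837 and 1423 CPM at day 7 (control, 1472 CPM). Both lay within 2-fold of the control.

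Genes of the provisional matrix were higher, several of them by more than 10-fold. Of 22 listed matricellular genes 21 passed, 9 were at least 4-fold higher in both and 7 had an edgeR adjusted p under 0.05. Tnc, the injury-induced tenascin, had 322 and 820.2 CPM at day 7 and 8.51 CPM in the control, with an edgeR adjusted p of 0.0318. Thbs4, a thrombospondin of tendon and wounded tissue, had 354 and 168 CPM at day 7 and 1.40 CPM in the control. Comp, a relative of cartilage and tendon, had 198 and 309.8 CPM at day 7, against 6.85 CPM in the control. Spp1, osteopontin, had 3294 and 3742 CPM at day 7 against 484 CPM in the control, with an edgeR adjusted p of 0.0230. Both day 7 libraries lay above the control for these 4 genes. Fn1, fibronectin, had 6063 and 9349 CPM at day 7 against 3706 CPM in the control, which is 1.64-fold and 2.52-fold higher. Sparc, a collagen-binding protein, had 5359.6 and 9180.2 CPM at day 7 against 18786 CPM in the control and was lower. Nov, also called Ccn3, had 2869 and 3114 CPM at day 7 against 5449 CPM in the control and was lower as well.

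Genes of cartilage and of mineral control were unequal between the day 7 libraries. Of 26 listed genes 24 passed, 8 were at least 4-fold higher in both and 1, Alpl, was 4-fold lower. Acan, the large proteoglycan of cartilage, had 96.3 and 805 CPM at day 7 and 1.56 CPM in the control. Sost, the secreted Wnt inhibitor known from bone, had 16.4 and 68.2 CPM at day 7 and 0.0649 CPM in the control. The control held 2 counts of Sost, so the ratio was 252 in replicate 1 (95% counting interval, 69.5 to 2084) and 1050 in replicate 2 (290.3 to 8675), with an edgeR adjusted p of 0.0320. At day 1 Sost had 0.0961, 0.0617 and 0.0966 CPM, at or near the floor as in the control. Sox9, the master factor of cartilage, had 5.86 and 12.2 CPM at day 7 (control, 0.195 CPM). Runx2, that of bone, had 15.3 and 21.4 CPM at day 7 against 0.682 CPM in the control. Col2a1, the collagen of cartilage, had 0.419 and 7.78 CPM at day 7 and no count in the control. Replicate 2 was above replicate 1 in each of these 5 genes. Mgp, an inhibitor of mineralization, had 4185 and 2357 CPM at day 7 and 2023 CPM in the control. Dmp1, a bone matrix protein, had 207 and 173 CPM at day 7 against 517 CPM in the control and was lower in both.

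Elastin showed the widest gap to the control in CPM of any gene tested. Eln, the elastic protein of the middle coat, had 3752 and 11408 CPM at day 7 and 56515 CPM in the control, and took 0.398% and 1.20% of all counts at day 7, against 5.44% in the control. The control was 15.1-fold and 4.95-fold above the day 7 libraries, with an edgeR adjusted p of 0.0774. Fbn1, the fibrillin on which elastin is laid, had 965 and 1655 CPM at day 7, against 3022 CPM in the control. Lox, an enzyme that cross-links it, had 387 and 1143 CPM at day 7 against 2175 CPM in the control. Fbln5, which helps its assembly, had 645 and 541 CPM at day 7 (control, 1569 CPM). Each was lower in both day 7 libraries, and replicate 1 was the lower for Eln, Fbn1 and Lox. Fbn2, the fibrillin of developing vessels, was higher, with 7.96 and 93.8 CPM at day 7 and 0.227 CPM in the control. Emilin2, a glycoprotein of elastic fibres, was higher with 63.8 and 55.3 CPM at day 7 against 6.46 CPM in the control and an edgeR adjusted p of 0.0284. Of 19 genes that passed, 7 were higher and 10 lower in both, against 41.9% and 36.0% of all genes tested.

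The fibrillar collagens Col1a1 and Col3a1 lay within 2-fold of the control and several minor collagens did not. Col1a1 had 7383 and 14392 CPM at day 7 and 13526 CPM in the control, on both sides of the control. Col3a1 had 10319.9 and 14847 CPM at day 7 and 18476 CPM in the control. Col8a1, a short-chain collagen of injured vessels, had 241 and 729 CPM at day 7, against 19.6 CPM in the control. Col11a1, which sets the width of fibrils, had 189 and 469 CPM at day 7 against 5.58 CPM in the control, with an edgeR adjusted p of 0.0299. Col8a1 and Col11a1 were at least 4-fold higher in both libraries and higher in replicate 2. Col4a5, of basement membranes, had 677 and 815 CPM at day 7 against 3192 CPM in the control and an edgeR adjusted p of 0.0390, whereas Col4a1, the most widespread basement membrane collagen, had 1344 and 1346 CPM at day 7 (control, 1725 CPM). Col27a1 had 32.8 and 30.2 CPM at day 7 (control, 139.6 CPM) and was the one collagen at least 4-fold lower in both. Itga9, an integrin chain that binds tenascin and osteopontin, was at least 4-fold lower with 250.2 and 244 CPM at day 7 against 1016 CPM in the control, with an edgeR adjusted p of 0.0215. Itgb1, the chain that most matrix integrins share, had 1737 and 2116 CPM at day 7 (control, 1995 CPM). Of 25 collagens, 13 were higher and 10 lower in both, against 41.9% and 36.0% of all genes tested.

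Metalloproteinases and their inhibitors were mixed, with 8 of 24 that passed at least 4-fold higher and 0 at least 4-fold lower in both. Over all genes tested these shares were 7.60% and 1.42%. Mmp2, a gelatinase of wall cells, had 2177 and 2287 CPM at day 7 and 1135 CPM in the control. Mmp14, which activates it, had 717 and 1085 CPM at day 7, against 317 CPM in the control. Mmp19 had 90.03 and 62.99 CPM at day 7 against 10.6 CPM in the control, with an edgeR adjusted p of 0.0383. Mmp9, a gelatinase of leukocytes, was uneven, with 65.3 and 5.32 CPM at day 7 against 0.260 CPM in the control. Adam12, a protease of regenerating tissue, had 51.6 and 265 CPM at day 7 against 3.70 CPM in the control and was uneven in the other direction. Timp1, an inhibitor, had 112 and 94.8 CPM at day 7 (control, 40.4 CPM). Timp3, an inhibitor that stays bound to matrix, had 838 and 576 CPM at day 7 against 1985 CPM in the control and was lower in both. Among proteoglycans, Dcn, decorin, had 1413 and 996 CPM at day 7 (control, 527 CPM), and Bgn, biglycan, had 7225 and 7719.8 CPM at day 7 (control, 8837 CPM). Has2, which makes hyaluronan, had 21.7 and 6.80 CPM at day 7 against 0.552 CPM in the control.

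**Figure D4:**
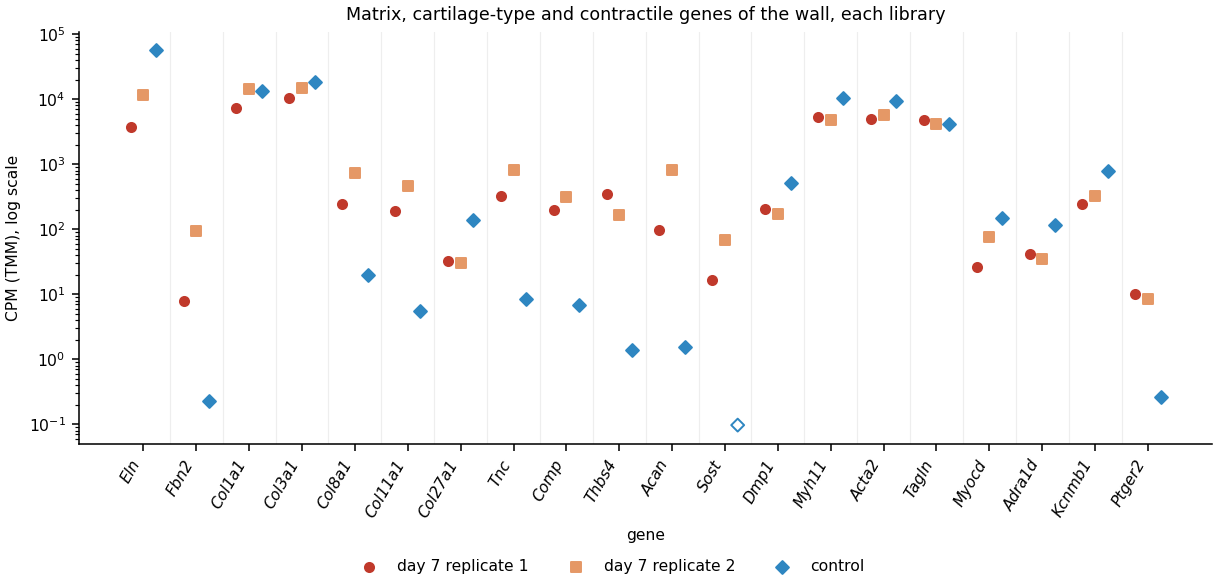
CPM on a log axis in day 7 replicate 1, day 7 replicate 2 and the control for genes of matrix, cartilage and contraction. Open symbols are under 3 counts and drawn at the floor. Eln, Col27a1 and Dmp1 are below the control in both day 7 libraries, Col8a1, Col11a1, Tnc, Comp, Thbs4, Acan and Sost are above it, and Myh11, Acta2 and Tagln lie within 3-fold of it.

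Most contractile genes were lower, by smaller factors. Of 18 smooth muscle markers 12 were lower and 4 higher in both day 7 libraries, against 36.0% and 41.9% of all genes tested. In both libraries 0 were 4-fold lower and 1 was at least 4-fold higher, and 0 had an edgeR adjusted p under 0.05. Their summed level was 26718 and 27559.7 CPM at day 7 and 42480 CPM in the control. Acta2, smooth muscle actin, had 4943 and 5758 CPM at day 7 and 9324 CPM in the control. Mylk, the kinase that starts contraction, had 1147 and 1253 CPM at day 7, against 2921 CPM in the control. Tagln, which binds actin in smooth muscle, had 4805 and 4181 CPM at day 7 against 4108 CPM in the control and was not lower. Myocd, the coactivator that switches contractile genes on, had 26.2 and 76.3 CPM at day 7 and 149 CPM in the control, with an edgeR adjusted p of 0.332. Its partner Srf had 125 and 125 CPM at day 7 (control, 131 CPM). Prkg1, the kinase that relays nitric oxide, had 13.4 and 36.6 CPM at day 7 against 44.5 CPM in the control and followed Myocd in that replicate 1 was the lower.

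Genes of membrane potential and calcium were lower as a group, with 22 of 30 below the control in both libraries, against 36.0% of all genes tested. Atp2a2, the pump that refills calcium stores, had 399 and 484 CPM at day 7 and 1057 CPM in the control. Atp2b4, a pump of the plasma membrane, had 275 and 325 CPM at day 7, against 776 CPM in the control. Kcnmb1, the smooth muscle subunit of the large-conductance potassium channel, had 243 and 328 CPM at day 7 against 784 CPM in the control. Each was at least 2-fold lower in both libraries. Cacna1c, the main voltage-gated calcium channel of the artery, had 61.02 and 114 CPM at day 7, against 273 CPM in the control. Piezo2, a stretch-activated channel, was higher with 9.58 and 27.2 CPM at day 7 against 0.909 CPM in the control, with an edgeR adjusted p of 0.0420. Its relative Piezo1 was also higher, with 95.9 and 121 CPM at day 7 against 32.1 CPM in the control and an edgeR adjusted p of 0.183.

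Receptors for vasoactive signals differed in direction. Adra1d, an adrenergic receptor of constriction, had 41.1 and 34.8 CPM at day 7, against 117 CPM in the control. Gucy1a3, a chain of the enzyme that senses nitric oxide, had 75.2 and 101 CPM at day 7 against 232 CPM in the control. Pde3a, a phosphodiesterase that ends cyclic nucleotide signals, had 173 and 308 CPM at day 7 and 707 CPM in the control, and Pde5a, another, had 141 and 206 CPM at day 7 (control, 443 CPM). All 4 were at least 2-fold lower in both libraries. Ptger2, a receptor of prostaglandin E2, had 10.2 and 8.35 CPM at day 7 against 0.260 CPM in the control, with an edgeR adjusted p of 0.0187. Ptger4, a further receptor of it, had 21.3 and 20.3 CPM at day 7 against 3.83 CPM in the control, with an edgeR adjusted p of 0.0207. Both were at least 4-fold higher in each day 7 library, as were Htr2b, a serotonin receptor, and Ednrb, an endothelin receptor. Npr1, the receptor of atrial natriuretic peptide, had 211 and 131 CPM at day 7 (control, 199.6 CPM), and Agtr1a, the main angiotensin receptor, had 14.2 and 9.63 CPM at day 7 (control, 12.8 CPM), each on both sides of the control. Of 30 genes that passed, 6 were at least 4-fold higher and 0 4-fold lower, against 7.60% and 1.42% of all genes tested.

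Of 19 endothelial markers that passed, 13 (68.4%) were within 2-fold of the control in both day 7 libraries, against 58.1% of all genes tested, and 0 had an edgeR adjusted p under 0.05. Pecam1, a junctional adhesion molecule, had 174 and 115 CPM at day 7 and 169 CPM in the control. Nos3, the endothelial nitric oxide synthase, had 127 and 63.7 CPM at day 7, against 122 CPM in the control. Cdh5, the cadherin of endothelial junctions, had 43.8 and 45.2 CPM at day 7 and 18.4 CPM in the control, with an edgeR adjusted p of 0.514. The first 2 lay on both sides of the control and Cdh5 above it. Kdr, the main receptor of VEGF, was the one marker at least 4-fold higher, with 8.12 and 10.9 CPM at day 7 (control, 0.747 CPM). Icam1, an adhesion molecule for leukocytes, had 90.4 and 62.7 CPM at day 7 against 31.8 CPM in the control. Klf2, a factor induced by flow, had 302 and 104 CPM at day 7 (control, 72.3 CPM). Aplnr, a receptor of sprouting endothelium, had 8.48 and 16.2 CPM at day 7 (control, 0.0649 CPM), where the control held 2 counts. Angpt2, which loosens vessels, had 51.9 and 24.8 CPM at day 7 against 136 CPM in the control and was lower.

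Genes of clot control were mixed. Of 27 that passed, 14 were higher and 8 lower in both, against 41.9% and 36.0% of all genes tested. Plau, urokinase, which activates plasmin, had 61.1 and 66.8 CPM at day 7 and 1.01 CPM in the control, with an edgeR adjusted p of 0.0310. Its receptor Plaur had 41.7 and 45.7 CPM at day 7, against 3.96 CPM in the control, with an edgeR adjusted p of 0.0842. Plat, the tissue-type activator, had 147 and 196 CPM at day 7 (control, 117 CPM). These 3 were above the control in both libraries. Thbd, which turns thrombin into an anticoagulant, had 147 and 71.4 CPM at day 7 against 165 CPM in the control. Ptgis, which makes prostacyclin, had 545 and 362 CPM at day 7 against 896 CPM in the control. Both were below the control. F3, tissue factor, had 109 and 30.4 CPM at day 7 (control, 32.96 CPM), on both sides of it.

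Platelet transcripts were lower, and red cell transcripts differed within the pair. Of 12 platelet markers that passed, 11 were lower in both day 7 libraries and 4 of them at least 4-fold. Over all genes tested these shares were 36.0% and 1.42%. Their summed level was 102 and 89.1 CPM at day 7 and 244 CPM in the control. Pf4, a chemokine stored in platelets, had 47.2 and 28.6 CPM at day 7 against 89.2 CPM in the control. Itga2b, the platelet fibrinogen receptor, had 10.4 and 3.34 CPM at day 7, against 45.5 CPM in the control. Hbb, a haemoglobin chain with close copies, had 502 and 39.9 CPM at day 7 (control, 217 CPM), on both sides of the control. Of 10 erythroid markers that passed, 0 were higher and 4 lower in both libraries, against 41.9% and 36.0% of all genes tested. The summed level of these erythroid markers was 535 and 43.4 CPM at day 7 and 242 CPM in the control.

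Genes of division were higher in both libraries by less than 4-fold for most. Of 24 mitosis genes 21 were higher in both, 2 of them by 4-fold, and of 23 S phase genes 20 were higher, 4 of them by 4-fold. Over all genes tested, 41.9% were higher in both and 7.60% were at least 4-fold higher in both. Mki67, present in dividing cells, had 20.9 and 45.6 CPM at day 7 and 6.75 CPM in the control, with an edgeR adjusted p of 0.0763, and of 0.477 with all 6 libraries. At day 1 Mki67 had 57.2, 62.8 and 58.5 CPM, above both day 7 libraries. Pcna, the clamp of DNA replication, had 66.4 and 47.3 CPM at day 7 against 29.1 CPM in the control.

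Growth factor genes had 22 of 34 members higher and 7 lower in both day 7 libraries, against 41.9% and 36.0% of all genes tested. Pdgfb, which draws smooth muscle cells, had 26.1 and 14.2 CPM at day 7 against 1.49 CPM in the control. Nrg1, a ligand of ErbB receptors, had 6.80 and 40.03 CPM at day 7, against 0.617 CPM in the control. Igfbp3, which binds insulin-like growth factors, had 179.9 and 109.8 CPM at day 7 (control, 8.31 CPM). All 3 were at least 4-fold higher in both. The receptor Pdgfrb had 741 and 761 CPM at day 7 (control, 877 CPM) and the receptor Fgfr1 had 369 and 402 CPM at day 7 (control, 421 CPM). Grem1, an antagonist of BMPs, had 28.3 and 85.7 CPM at day 7 against 3.38 CPM in the control. Id1, a target of BMP signalling, had 155 and 151 CPM at day 7 against 60.7 CPM in the control. In the Wnt list, Rspo1, which strengthens Wnt signals, had 10.01 and 10.2 CPM at day 7 against 0.714 CPM in the control, with an edgeR adjusted p of 0.0215.

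Immediate early genes, which respond to a stimulus within minutes, were uneven within the pair. Of 22 genes 18 were higher in both libraries, 5 of them by 4-fold, against 41.9% and 7.60% of all genes tested. Fos, a subunit of AP-1, had 1277 and 686 CPM at day 7 and 46.5 CPM in the control. Junb, another, had 1141 and 536 CPM at day 7, against 75.3 CPM in the control. Dusp1, a phosphatase that ends kinase signals, had 1911 and 812 CPM at day 7 against 512 CPM in the control. Nr4a1, a nuclear receptor, had 729.5 and 54.1 CPM at day 7 (control, 91.8 CPM), so that its day 7 libraries lay on both sides of the control. Replicate 1 was the higher one in these 4 genes.

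The respiratory chain, fatty acid oxidation and cholesterol synthesis lay near the normal artery. Of 27 listed nuclear genes of the respiratory chain 26 passed the filter and 26 were within 2-fold of the control in both libraries, against 58.1% of all genes tested. Atp5b, a catalytic chain of ATP synthase, had 573 and 432 CPM at day 7 against 627 CPM in the control. Cox4i1, a subunit of cytochrome oxidase, had 248 and 171 CPM at day 7 against 164 CPM in the control. Fatty acid oxidation had 20 of 22 genes within 2-fold, with Cpt1a, its entry step, at 105 and 93.9 CPM at day 7 against 170.3 CPM in the control. Cholesterol synthesis and uptake had 15 of 19, with its regulator Srebf2 at 73.5 and 80.4 CPM at day 7 against 119 CPM in the control. Of 23 glycolysis and hypoxia genes, 14 (60.9%) were within 2-fold in both, near the 58.1% of all genes tested. Gapdh, an enzyme of glycolysis, had 504 and 415 CPM at day 7 against 339.7 CPM in the control. Hk3, described above, is also on this list.

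The day 7 libraries were not equal to each other. Over all genes tested, the median absolute difference between them was 0.37 on the log2 scale, against a median absolute log2 fold of their mean over the control of 0.56. In replicate 1, 404 genes were at least 4-fold higher than in replicate 2, and 388 genes were at least 4-fold higher in replicate 2. Most skeletal muscle genes were higher in replicate 1. Myh1, a fast myosin, had 52.1 and 1.46 CPM at day 7 and 0.260 CPM in the control. Mylpf, a fast light chain, had 12.99 and 0.456 CPM at day 7, against 0.195 CPM in the control. Acta1, skeletal actin, had 47.6 and 33.6 CPM at day 7 (control, 43.8 CPM), on both sides of the control. The summed level of the 13 skeletal muscle genes was 224 and 63.96 CPM at day 7 and 101 CPM in the control. Genes at least 4-fold higher in replicate 2 included Acan, Fbn2, Adam12, Col2a1, Nrg1 and Sost, which are described above. Adipoq, the adipocyte hormone, had 0.259 and 0.121 CPM at day 7 (control, 0.162 CPM). Sox10, a factor of Schwann cells, had 2.47 and 4.07 CPM at day 7 (control, 0.422 CPM). The part of neighbouring muscle, fat and nerve in the results above was not tested.

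**Figure D5:**
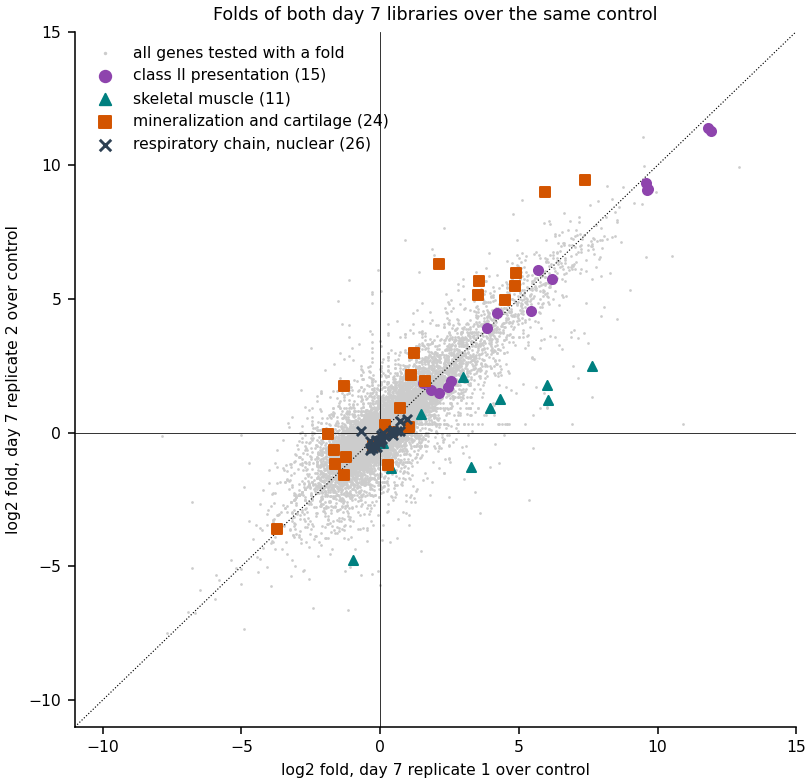
Log2 fold of day 7 replicate 1 (x axis) and day 7 replicate 2 (y axis) over the same control, 1 point per gene with a fold in both, with 4 lists coloured and the dotted line marking equal folds. The axes share the control, so points fall along the line in part for that reason. Class II genes lie near the line and above 0, respiratory chain genes near the origin, most skeletal muscle genes below the line and most of the higher cartilage genes above it.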

How the data were processed

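Poly(A) RNA of 6 rat carotid libraries was compared as day 7 (2) minus control (1), with day 1 (3) in the fit. The authors deposited read counts per gene and FPKM values, and both are used as deposited. The submitters' processing notes name HISAT2, StringTie 1.3.1, Bowtie2 2.2.8 and fastp 0.18.0; genome build and strand setting: not given in the sources used here. The deposited FPKM equal the counts scaled by 1 length per gene and the library total (relative spread at most 4.03e-15 over 12019 genes with more than 20 counts in each library).

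Genes passing filterByExpr (15860 of 24005) were normalized by TMM and tested with edgeR 4.0.16 (quasi-likelihood, robust, 3 group means, R 4.3.3), which leaves 3 residual degrees of freedom, all from treated libraries; the control is assumed to vary like them. The pipeline was tested on simulated data. The 4-fold description sets values under 3 counts to 3 and gives no fold where both libraries are at or under 3 counts. Counting intervals and floors cover counting error only. Alternatives used limma 3.58.1, DESeq2 1.42.0, other factors, filters, pseudocounts and folds, and left out each treated library. Promoters matched by symbol to RefSeq (GRCr8).

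The members, the 39 gene lists and the 20 marker lists were chosen with earlier results of these data known. Named genes are the 10 leading genes per direction (mean of at least 10 CPM, ranked by the smaller of both folds), the 3 members of each list with the highest mean CPM, and a fixed set (Acta2, Myh11, Myocd, Eln, Col1a1, Mgp, Sost, Spp1, Pecam1, Cd74, Cd68, Cdh5, Adipoq, Sox10, Acta1 and Mki67). Other genes were named after their values were seen. A few of the named genes are left out of the text.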

Additional observations from a re-analysis of the deposited data

How the results depend on the processing

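No paired analysis was possible because the control carries no replicate number. edgeR's count of called genes was 0 with all 6 libraries, with factors from the upper quartile or the median of ratios, with a CPM of at least 1 in 2 libraries, without haemoglobin and mitochondrial genes and with limma-voom. It was 1 with no filter, 1 with limma-trend on log2(FPKM + 0.1), 2 on log2(FPKM + 1), 791 with DESeq2 and 822 with the day 7 and control libraries alone. Leaving out 1 treated library at a time gave 0 to 693 calls, and the 693 came without day 1 replicate 1. The count of genes at least 4-fold from the control in both day 7 libraries was 1431. It was 670 on log2(CPM + 1), 478 on log2(FPKM + 1), 3396 at 2-fold and 746 at 8-fold, and 2127 to 2192 with 1 day 7 library left out, where 1 library must pass in place of both. With the other factors and filters it was 1215 to 1433. Of 261 list members and named genes that were 4-fold away in both, 0 of 2332 values under the alternatives turned round in sign. Choosing genes so far from the control in these same libraries leaves little room to turn round, so this is no check of direction. Of 195 genes named in the text with a fitted log2 fold, 22 near 0 or uneven within the pair turned round, 12 of them only without 1 of the day 7 libraries. Leaving out 1 treated library at a time gave log2 folds of -0.39 to 0.12 for Acta1, -0.41 to 0.15 for Agtr1a, -0.081 to 0.031 for Axl, -0.31 to 0.10 for Cat, -0.049 to 0.95 for Clu, -0.87 to 0.090 for Col1a1 and -0.097 to 0.11 for Erap1. They were -0.11 to 1.72 for F3, -2.44 to 1.21 for Hbb, -0.086 to 0.018 for Hmox2, -0.20 to 0.086 for Itgb1, -0.056 to 1.09 for Ms4a7, -0.62 to 2.25 for Mx1 and -0.93 to 0.066 for Nos3. The others were -0.61 to 0.080 for Npr1, -0.76 to 2.99 for Nr4a1, -0.56 to 0.041 for Pecam1, -0.34 to 2.62 for S100a9, -0.026 to 0.22 for Sod3 and -0.35 to 0.63 for Tgfb3. On log2(FPKM + 1) and log2(FPKM + 0.1) the values were 0.0039 and 0.0034 for Acta1, 0.012 and 0.010 for Agtr1a, 0.11 and 0.11 for Axl, 0.030 and 0.030 for Cat, 0.0057 and 0.0058 for Fgfr1, -0.47 and -0.48 for Hbb, 0.097 and 0.10 for Hmox2, 0.079 and 0.079 for Itgb1 and 0.070 and 0.071 for Srf. Hbb had -0.71 with limma-voom. Erap1 had -0.0055 with the median of ratios, -0.011 without haemoglobin and mitochondrial genes, -0.0094 with the day 7 and control libraries alone and -0.0056 with DESeq2. The cause was not tested. The single control limits every value here: its own spread cannot be measured, and with all 6 libraries the spread includes day 1 replicate 1.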

Other observations

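Nerve-associated transcripts differed in both directions within 1 marker list. Gldn, a Schwann cell protein that gathers sodium channels at nodes, had 5.51 and 7.53 CPM at day 7, against 37.5 CPM in the control. It was at least 4-fold lower in each day 7 library. Erbb3, the Schwann cell receptor of neuregulins, was higher with 4.67 and 7.81 CPM at day 7 against 0.714 CPM in the control, as was Sox10. Mbp, a protein of myelin, had 6.06 and 4.56 CPM at day 7 (control, 6.59 CPM). Of 13 Schwann cell markers, 7 were higher and 5 lower in both, against 41.9% and 36.0% of all genes tested. Gap43, a protein of growing axons, had 4.41 and 4.77 CPM at day 7 (control, 0.0649 CPM), where the control held 2 counts, and 3 of 8 neuron markers that passed were at least 4-fold higher. These genes were chosen after their values were seen.

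Interferon-response genes were uneven within the pair. Mx1, an antiviral GTPase, had 9.26 and 67.5 CPM at day 7 against 14.2 CPM in the control, so replicate 1 lay below and replicate 2 above the control. Irf7, a factor that amplifies interferon, had 20.2 and 62.8 CPM at day 7 (control, 8.73 CPM). Of 23 genes that passed, 1 was at least 4-fold higher in both, against 7.60% of all genes tested. Of 18 clock genes, 9 were below the control in both libraries, against 36.0% of all genes tested, and the medians of the log2 fold were -0.04 and -0.73 in day 7 replicates 1 and 2. Arntl, the core activator of the clock, had 13.8 and 26.1 CPM at day 7, against 48.8 CPM in the control. Bhlhe41, which represses clock genes, had 66.9 and 44.9 CPM at day 7 against 7.14 CPM in the control and was the one clock gene at least 4-fold higher in both. The hours at which the arteries were collected are not in the labels.

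Fam111a, a protease linked to host defence, had an adjusted p of 0.0892 in edgeR with all 6 libraries. It had 190.1 and 149 CPM at day 7, against 1.36 CPM in the control. At day 1 it had 88.7, 90.5 and 108 CPM. Its adjusted p was 0.043 in edgeR with no filter on counts, and 0.0392 and 0.0195 in limma-trend on log2(FPKM + 1) and log2(FPKM + 0.1). Over all its alternatives it ran up to 0.628, without day 7 replicate 2. All 5 libraries of reopened arteries lay above the control for this gene, day 1 replicate 1 included. Sdf2l1, a chaperone cofactor of the endoplasmic reticulum, had 27.6 and 22.2 CPM at day 7 against 2.05 CPM in the control, while Hspa5, the main chaperone there, had 479.6 and 678 CPM at day 7 against 440.3 CPM in the control, and 17 of 23 genes of that list were within 2-fold of the control in both.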
